A study of Homo sapiens with 8 samples.

Results

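The 10 genes described here encode the 5 subunits of NFκB (NFKB1, NFKB2, REL, RELA and RELB) and 5 members of the IκB family (NFKBIA, NFKBIB, NFKBIE, NFKBIZ and BCL3). They were chosen by gene symbol in the annotation of the array platform. Each symbol belonged to 1 probeset, which gave 10 probesets of the 33297 on the array. The cells were DU145, a line derived from human prostate cancer, and RNA of 4 groups with 2 arrays each was hybridised to 8 Affymetrix Human Gene 1.0 ST arrays. FGF19 + TNFα cells received 50 ng/ml FGF19 together with heparin at 100 µg/ml for 100 min, of which the last 90 min also with TNFα at 50 ng/ml. TNFα cells were given the same dose of TNFα for 90 min, FGF19 cells the same FGF19 and heparin for 100 min, and Mock cells neither agent. All cells were serum-starved. The doses and times are those of the sample labels, and the study's methods state lower doses of heparin and TNFα. FGF19 and heparin were always given together, so their effects cannot be told apart. The labels call the arrays of a group biological replicates. The study asked how FGF19, a ligand of the receptor FGFR4, alters the response of these cells to TNFα, a cytokine that activates NFκB.

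NFκB is a family of dimeric transcription factors. In resting cells the dimers are held inactive by IκB proteins, chiefly in the cytoplasm. TNFα activates the IκB kinase complex, which marks the classical IκB proteins for degradation, and the freed dimers enter the nucleus and bind κB sites in DNA. Several genes of the family are themselves known targets of NFκB, among them NFKBIA, whose product IκBα enters the nucleus, removes NFκB from DNA and so terminates the response. REL, RELA and RELB carry transactivation domains, whereas NFKB1 and NFKB2 encode precursors of subunits that lack them. NFKBIA, NFKBIB and NFKBIE encode the classical inhibitors IκBα, IκBβ and IκBε, and NFKBIZ and BCL3 encode nuclear IκB proteins that can also serve as coactivators.

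The promoters of these genes were searched for the κB consensus because several of the genes responded to TNFα on the arrays. Of the 10 genes, 8 were found in the RefSeq promoter table (GRCh38.p14), and RELB and NFKBIE were not analysed here. In the 250 bases before each annotated start, read on both strands, the κB consensus was matched in 6 of these 8 genes (75%) and in 8 of their 14 windows (57.1%). It was matched in 9.96% of all 35116 windows and in 11.8% of all 27305 genes of the table. Among genes that were higher with TNFα than in Mock, 61 of 188 (32.4%) had a match, against 2005 of 14051 other measured genes (14.3%). The 10 stretches below hold every match in these windows, 5′ to 3′ on the strand of the gene, and overlapping matches are joined. Capitals mark the bases matched.
NFKB1 chr4:102501300-102501329 (+): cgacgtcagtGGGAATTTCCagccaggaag
NFKB2 chr10:102394461-102394490 (+): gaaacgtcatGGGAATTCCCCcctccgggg
NFKB2 chr10:102394490-102394519 (+): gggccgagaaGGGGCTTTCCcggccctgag
NFKB2 chr10:102395519-102395548 (+): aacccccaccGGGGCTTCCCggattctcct
NFKB2 chr10:102395674-102395703 (+): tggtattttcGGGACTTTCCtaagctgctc
REL chr2:60881517-60881546 (+): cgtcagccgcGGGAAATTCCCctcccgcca
NFKBIA chr14:35404811-35404840 (-): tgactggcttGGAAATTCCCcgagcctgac
NFKBIB chr19:38899931-38899960 (+): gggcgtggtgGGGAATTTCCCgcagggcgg
NFKBIZ chr3:101827757-101827786 (+): tttttggtctGGGAATTTCCagtgtgcaga
NFKBIZ chr3:101849265-101849294 (+): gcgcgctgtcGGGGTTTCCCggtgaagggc
The match of NFKB1 lay 49 to 40 bases before the annotated start, that of REL 47 to 37, that of NFKBIA 81 to 72 and that of NFKBIB 28 to 18. The windows of RELA and BCL3 held no match, which says only that these letters are not in those windows. The whole window of NFKBIA, the feedback inhibitor, is shown for the context of its match.
NFKBIA upstream window chr14:35404750-35404999 (-): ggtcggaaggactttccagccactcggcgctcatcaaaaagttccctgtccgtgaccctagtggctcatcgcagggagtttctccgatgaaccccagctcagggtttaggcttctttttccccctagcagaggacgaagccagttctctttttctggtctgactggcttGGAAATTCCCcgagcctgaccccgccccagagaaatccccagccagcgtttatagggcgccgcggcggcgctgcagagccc
A match is a description of the sequence. Binding was not measured on these arrays.

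The identity of the cells was checked with marker genes. All 5 epithelial markers were measured, at percentiles 81.4 to 98.3 of Mock signal. Of 5 prostate luminal markers, 2 were measured, KLK3 at percentile 32.1 and KLK2 at percentile 36.6. The 5 fibroblast markers lay at percentiles 7.5 to 50.9, 3 of 4 leukocyte markers at 6.6 to 48.4, and the 3 endothelial markers at 27 to 72.3, with CDH5 the highest. The receptor genes FGFR4, KLB and TNFRSF1A lay at percentiles 59.2, 51.1 and 90.2. The median signal of an array ranged from 99.5 to 106.6, and the within-group correlation across probesets was r = 0.967 to 0.98. Arrays carry no read depth, and their number limits the precision. In RNA from whole cultures, fewer expressing cells and less RNA per cell cannot be told apart.

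NFKB1 and NFKB2, the precursor subunits, were raised in both groups that received TNFα. NFKB1 (probeset 8096635) had signals of 1735 and 1733 with FGF19 + TNFα, 1949 and 1801 with TNFα, 1049 and 1012 with FGF19, and 1006 and 980 in Mock. NFKB2 (probeset 7930074) had signals of 789 and 761 with FGF19 + TNFα, 1047 and 1041 with TNFα, 391 and 409 with FGF19, and 428 and 439 in Mock. For NFKB1 the groups with TNFα lay well above those without it and close to each other. For NFKB2 the TNFα arrays also stood above the FGF19 + TNFα arrays, and the FGF19 arrays below Mock.

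The 3 Rel proteins with transactivation domains had 3 different orders of groups. REL (probeset 8042144), which encodes c-Rel, had signals of 1128 and 1203 with FGF19 + TNFα, 797 and 822 with TNFα, 700 and 628 with FGF19, and 365 and 379 in Mock. RELA (probeset 7949465), which encodes the subunit of the principal dimer induced by TNFα, had 794 and 800 with FGF19 + TNFα, 593 and 604 with TNFα, 631 and 630 with FGF19, and 477 and 476 in Mock. RELB (probeset 8029580), which partners the NFKB2 product in the non-canonical pathway, had 248 and 232 with FGF19 + TNFα, 475 and 486 with TNFα, 135 and 182 with FGF19, and 237 and 276 in Mock. REL and RELA were highest where both agents were given. RELB was highest with TNFα alone and lowest with FGF19 alone, and its FGF19 + TNFα arrays overlapped the Mock arrays.

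Among the classical inhibitors, NFKBIA followed TNFα, and NFKBIB and NFKBIE were lower with FGF19 than in the matching group without it, both with and without TNFα. NFKBIA (probeset 7978644) had signals of 4779 and 4582 with FGF19 + TNFα, 5163 and 5180 with TNFα, 1641 and 1889 with FGF19, and 1800 and 1654 in Mock. NFKBIB (probeset 8028552) had 149 and 141 with FGF19 + TNFα, 249 and 251 with TNFα, 103 and 130 with FGF19, and 179 and 172 in Mock. NFKBIE (probeset 8126666) had 331 and 303 with FGF19 + TNFα, 634 and 638 with TNFα, 154 and 152 with FGF19, and 269 and 252 in Mock. The FGF19 + TNFα arrays were below Mock for NFKBIB and above Mock for NFKBIE.

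The nuclear IκB genes both had their lowest signals in Mock. NFKBIZ (probeset 8081386), which encodes IκBζ, had 510 and 598 with FGF19 + TNFα, 548 and 550 with TNFα, 153 and 177 with FGF19, and 120 and 119 in Mock. BCL3 (probeset 8029465), whose product binds homodimers of the precursor-derived subunits, had 277 and 274 with FGF19 + TNFα, 203 and 228 with TNFα, 163 and 181 with FGF19, and 141 and 121 in Mock. The 2 arrays with both agents spanned the TNFα arrays for NFKBIZ and lay above them for BCL3. Over the 10 genes, the pooled SD within groups on the log2 scale was smallest for RELA (0.01) and largest for RELB (0.18). In Mock the probesets lay between percentile 53.5 (NFKBIZ) and percentile 94.6 (NFKBIA) of all signals. PLIER signal is not scaled by transcript length, and levels were not compared between genes. In limma's F test over the 4 groups, all 10 genes passed an adjusted p of 0.015, as did 20.9% of all probesets.

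**Figure D1:**
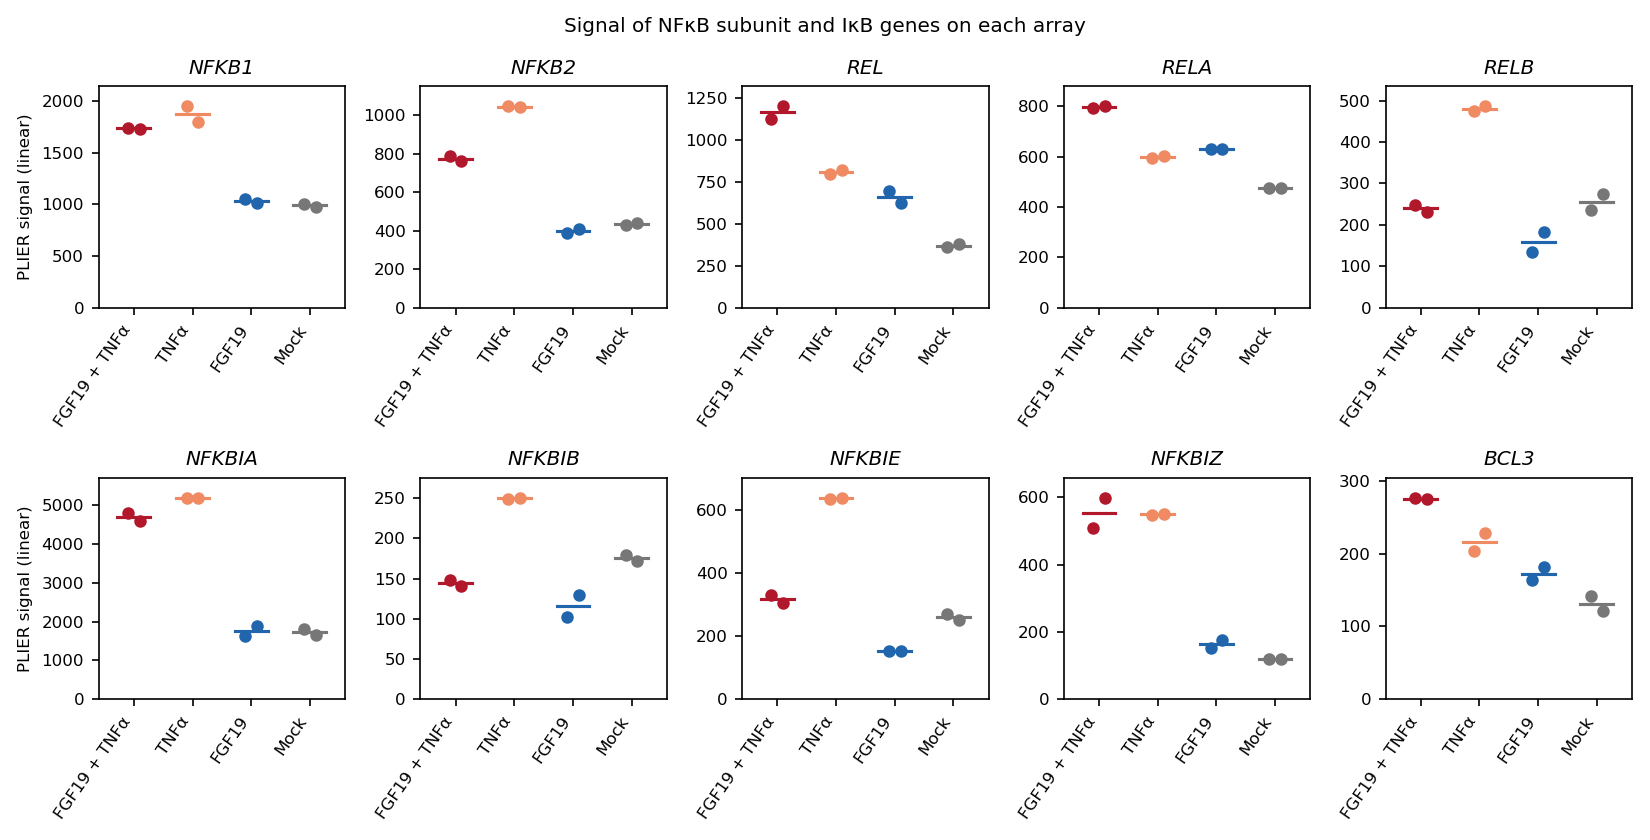
Linear PLIER signal (vertical axes, from 0) of the 10 genes on each of the 8 arrays, by group, with points for arrays and lines for group means (n = 2). REL, RELA and BCL3 are highest with FGF19 + TNFα, NFKB1, NFKB2, RELB, NFKBIA, NFKBIB and NFKBIE are highest with TNFα, and the NFKBIZ arrays of these groups overlap.

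TNFα alone raised 6 of the 10 genes relative to Mock, and none fell. The genes raised were NFKB1, NFKB2, REL, NFKBIA, NFKBIE and NFKBIZ. Of all probesets, 1.06% were called in this comparison, 0.967% higher and 0.0961% lower. The median log2 difference was 1.02 over the 10 genes and -0.04 over all probesets. For all 10 genes both TNFα arrays lay above both Mock arrays. Counting both directions, the groups did not overlap for 51.5% of all probesets, and 57.4% of all probesets had a log2 difference below 0. A gene is said to have risen or fallen at an adjusted p under 0.05 from limma, with p-values adjusted over all probesets.

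NFKBIZ had the largest difference of the 10 genes between TNFα and Mock, 4.59-fold (log2 difference 2.2, SE 0.12, limma adjusted p = 0.0014, n = 2 per group). NFKBIA rose 3-fold (log2 difference 1.58, SE 0.1, limma adjusted p = 0.00222), and NFKBIE rose 2.44-fold (1.29, SE 0.09, limma adjusted p = 0.00261). The IκB genes raised were thus of 2 kinds, classical (NFKBIA and NFKBIE) and nuclear (NFKBIZ). Of the subunits, NFKB2 rose 2.41-fold (1.27, SE 0.08, limma adjusted p = 0.00209), REL 2.18-fold (1.12, SE 0.09, limma adjusted p = 0.0054) and NFKB1 1.89-fold (0.92, SE 0.08, limma adjusted p = 0.00754). RELB, at 1.88-fold, differed about as much as NFKB1 but with a larger spread, and did not pass (SE 0.16, 95% interval of the log2 difference 0.52 to 1.3, limma adjusted p = 0.0759). BCL3 (1.65-fold, limma adjusted p = 0.0581), NFKBIB (1.42-fold, 0.187) and RELA (1.26-fold, 0.156) did not pass either. RELB and BCL3 passed with an offset of 16, without the dimmest 20 percent of probesets and with the trended and robust prior, which raised the count to 8. RELB also passed without either FGF19 array, and BCL3 after cyclic loess. RELA passed without moderation of the variances and under no other alternative. NFKB2, NFKBIA, NFKBIE and NFKBIZ passed under all 16 alternative settings. The rise of NFKB1 was lost when either Mock or either TNFα array was left out, and that of REL without either Mock array or without TNFα replicate 2.

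In cells given FGF19, TNFα raised the same 6 genes, NFKB1, NFKB2, REL, NFKBIA, NFKBIE and NFKBIZ. Of all probesets, 0.282% were called between FGF19 + TNFα and FGF19, 0.279% higher and 0.003% lower. The median log2 difference was 0.78 over the 10 genes, beside 0 over all probesets. Relative to FGF19 alone, NFKBIZ was 3.36-fold higher (limma adjusted p = 0.0068), NFKBIA 2.66-fold (0.00796) and NFKBIE 2.07-fold (0.0125). NFKB2 was 1.94-fold higher (limma adjusted p = 0.0125), REL 1.76-fold (0.0421) and NFKB1 1.68-fold (0.0392). The groups did not overlap for any of the 10 genes, as for 28.5% of all probesets. RELA (1.26-fold, limma adjusted p = 0.315), RELB (1.54-fold, 0.458), NFKBIB (1.25-fold, 0.796) and BCL3 (1.6-fold, 0.156) did not pass. Without moderation of the variances RELA passed, and with the trended and robust prior BCL3 did. None of the 6 calls held under every alternative. Leaving out FGF19 + TNFα replicate 2 ended all 6, and NFKB1, NFKB2, REL and NFKBIE were lost whichever of the 8 arrays was left out.

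**Figure D2:**
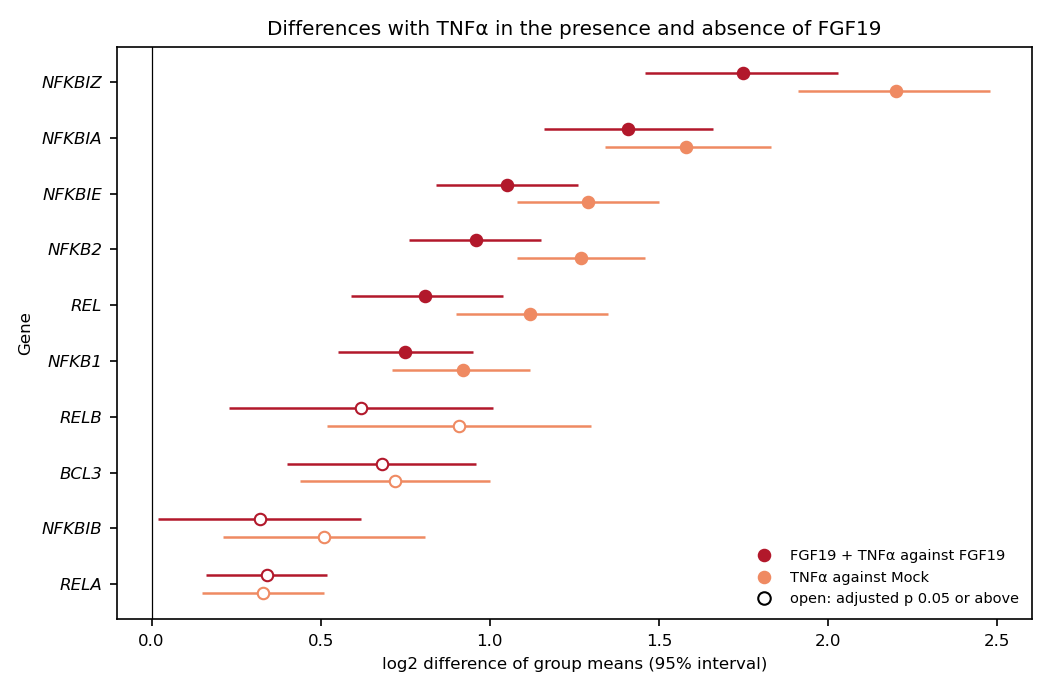
log2 difference with TNFα in the presence of FGF19 (FGF19 + TNFα against FGF19) and in its absence (TNFα against Mock) for the 10 genes, with 95% intervals. All 10 points lie above 0 in each comparison, and filled points mark the 6 genes that passed in it.

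With FGF19 added to TNFα, REL and RELA were higher than with TNFα alone, whereas NFKB2, RELB, NFKBIB and NFKBIE were lower. The other 4 genes, among them NFKBIA, the main feedback inhibitor, and NFKBIZ, did not pass in either direction. Of all probesets, 32.4% were called between FGF19 + TNFα and TNFα, 19.4% higher and 12.9% lower. The 6 calls among the 10 genes are to be read against these shares. The TNFα arrays are shared with the comparison against Mock. The median log2 difference was -0.13 over the 10 genes and 0.1 over all probesets. The groups did not overlap for 9 of the 10 genes, with 70% of all probesets.

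Relative to TNFα alone, NFKBIE was 2.01-fold lower in FGF19 + TNFα cells (log2 difference -1, SE 0.09, 95% interval -1.22 to -0.79, limma adjusted p = 0.00348). RELB was 2-fold lower (log2 difference -1, SE 0.16, 95% interval -1.39 to -0.61, limma adjusted p = 0.00695). NFKBIB was 1.73-fold lower (-0.79, SE 0.13, limma adjusted p = 0.00682) and NFKB2 1.35-fold lower (-0.43, SE 0.08, limma adjusted p = 0.0104). Of all probesets, 3% had a lower log2 difference than NFKBIE, 3.1% than RELB and 5.5% than NFKBIB. In the other direction, REL was 1.44-fold higher (0.53, SE 0.09, limma adjusted p = 0.0093) and RELA 1.33-fold higher (0.41, SE 0.07, limma adjusted p = 0.0101). BCL3 was 1.28-fold higher without passing (95% interval 0.07 to 0.63, limma adjusted p = 0.0622). The intervals of NFKB1 (-0.31 to 0.09), NFKBIA (-0.39 to 0.1) and NFKBIZ (-0.28 to 0.29) spanned 0. RELB, NFKBIB and NFKBIE passed under all 16 alternatives. REL was lost without TNFα replicate 1 or FGF19 + TNFα replicate 2, and RELA and NFKB2 were lost without either TNFα array or FGF19 + TNFα replicate 2.

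FGF19 alone, set against Mock, gave 4 genes that were higher, REL, RELA, NFKBIZ and BCL3, and 3 that were lower, RELB, NFKBIB and NFKBIE. The group means came from the other 4 arrays, and the spread from all 8. Of all probesets, 32.2% were called, 18.2% higher and 14.1% lower. The median log2 difference was 0.04 over the 10 genes and 0.08 over all probesets, and the groups did not overlap for 9 genes, with 66.9% of all probesets. REL was 1.78-fold higher with FGF19 than in Mock (log2 difference 0.83, SE 0.09, limma adjusted p = 0.00298). RELA was 1.32-fold higher (limma adjusted p = 0.00984), NFKBIZ 1.37-fold (0.0281) and BCL3 1.31-fold (0.046). NFKBIE was 1.7-fold lower (-0.76, SE 0.09, limma adjusted p = 0.00306), RELB 1.63-fold lower (limma adjusted p = 0.0189) and NFKBIB 1.52-fold lower (limma adjusted p = 0.0145). The intervals of NFKB1 (-0.15 to 0.26), NFKB2 (-0.31 to 0.08) and NFKBIA (-0.22 to 0.28) spanned 0. REL and NFKBIE passed under all 16 alternatives, and only these 2 passed with only the groups compared. RELA, RELB, NFKBIB and NFKBIZ were lost without either Mock array, and BCL3 whichever of the 8 arrays was left out. NFKBIZ was also lost without FGF19 replicate 2 or without either TNFα array.

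REL and RELA were thus higher, and RELB, NFKBIB and NFKBIE lower, with FGF19 both in the presence and in the absence of TNFα. The group means came from separate sets of arrays, while the spread was shared. With FGF19 + TNFα against TNFα 32.4% of all probesets were called, and with FGF19 against Mock 32.2%. The share of all probesets called in the same direction in both was not counted. Whether these genes agreed more often than other probesets was therefore not tested. Epithelial markers moved in the same comparisons. KRT8 and KRT19, keratins of simple epithelia, were lower by log2 differences of -0.98 and -1.12 with FGF19 + TNFα than with TNFα, and of -1.05 and -1.28 with FGF19 than in Mock. The summed signal of the 5 epithelial markers was 6870 with FGF19 + TNFα, 8700 with TNFα, 6780 with FGF19 and 9510 in Mock. The other epithelial markers differed less, and not all in that direction. With FGF19 + TNFα against TNFα, KRT18 had a log2 difference of -0.14, EPCAM of 0.2 and CDH1 of 0.34, of which that of CDH1 passed. With FGF19 against Mock, KRT18 (-0.24), EPCAM (-0.13) and CDH1 (0.23) did not pass. Of the 11 measured leukocyte, endothelial and fibroblast markers, 3 were higher and none lower with FGF19 + TNFα than with TNFα, CD3E (0.54), VWF (0.42) and COL3A1 (0.62). Of all probesets, 19.4% were higher and 12.9% lower in that comparison. These 3 markers lay at percentiles 27.2, 27 and 44.3 of Mock signal. With FGF19 against Mock, CD3E (0.56) was higher, as were 18.2% of all probesets, and PTPRC (0.58) and CD14 (-0.25) did not pass. The receptor gene FGFR4 was lower with FGF19 + TNFα than with TNFα (-0.42), and TNFRSF1A was lower with FGF19 than in Mock (-0.29). The summed signal of the 3 leukocyte markers was 166 with FGF19 + TNFα, 141 with TNFα, 164 with FGF19 and 151 in Mock, that of the 3 endothelial markers ranged from 434 to 505 over the groups, and that of the 5 fibroblast markers was 351 with FGF19 + TNFα, 290 with TNFα, 331 with FGF19 and 312 in Mock. The part of these markers in the differences of the NFκB and IκB genes was not tested.

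**Figure D3:**
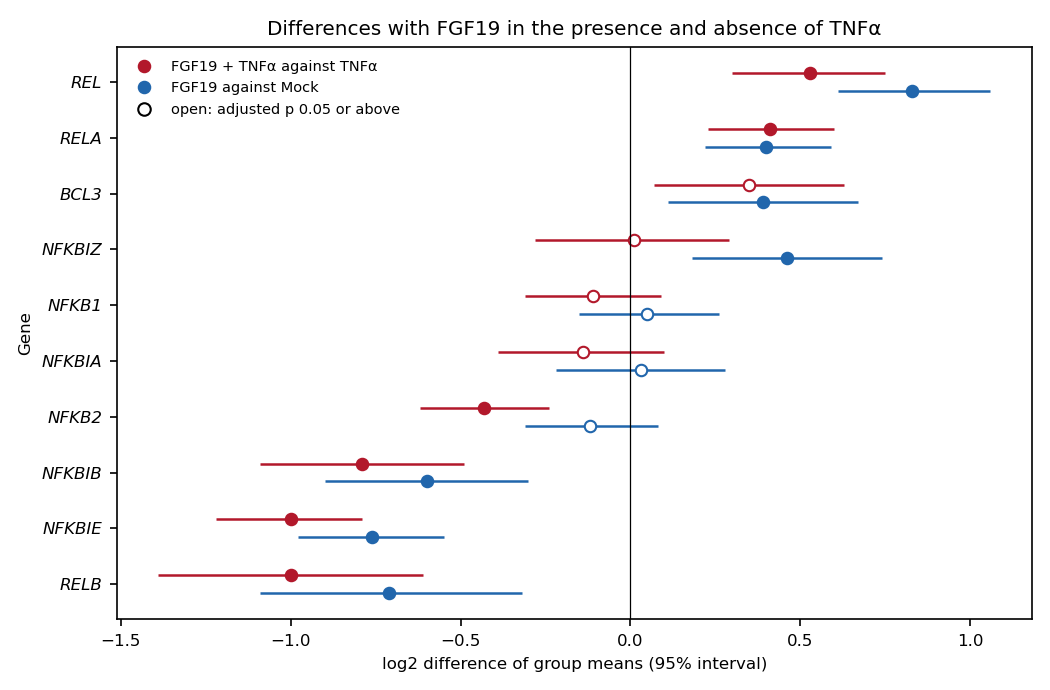
log2 difference with FGF19 in the presence of TNFα (FGF19 + TNFα against TNFα) and in its absence (FGF19 against Mock) for the 10 genes, with 95% intervals, filled where the gene passed. RELB, NFKBIB and NFKBIE lie below 0 and REL and RELA above 0 in each comparison.

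**Figure D4:**
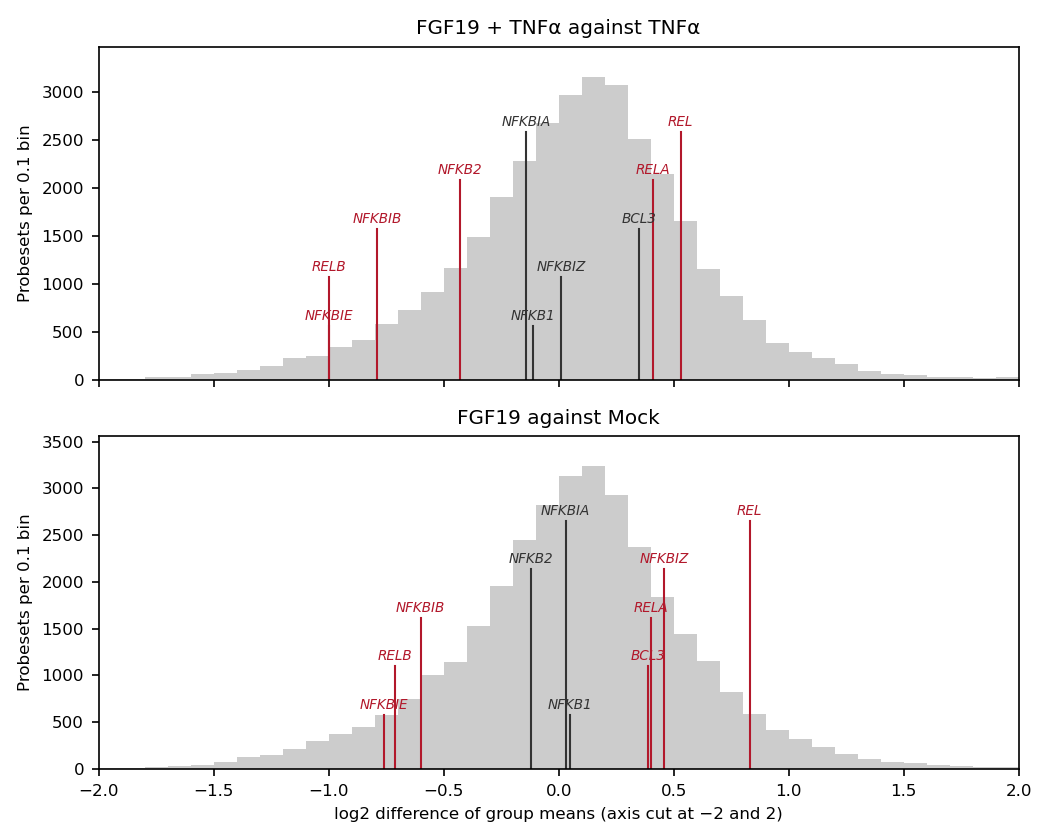
Number of probesets per 0.1 of log2 difference (grey, horizontal axis from -2 to 2) with the 10 genes as lines, red where they passed, for FGF19 + TNFα against TNFα (top) and FGF19 against Mock (bottom). In the top panel NFKBIE and RELB stand at the same place, -1, in the lower tail, and NFKBIA, NFKB1 and NFKBIZ stand near 0.

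Whether FGF19 changed the response to TNFα was tested as the interaction, the log2 difference with TNFα in the presence of FGF19 minus that in its absence. None of the 10 genes passed, as none of all probesets did (percentage called 0). Without any interaction, a share of 0.05 of the probesets would be expected at an unadjusted p under 0.05. By limma 1715 of all 33297 probesets lay there, and 2 of the 10 genes. These genes were NFKBIZ (log2 interaction -0.45, 95% interval -0.85 to -0.05, unadjusted p = 0.0333, limma adjusted p = 0.96) and NFKB2 (-0.31, 95% interval -0.58 to -0.04, unadjusted p = 0.0299, limma adjusted p = 0.96). The interaction was below 0 for 9 of the 10 genes, all but RELA (0.01), and for 44.2% of all probesets. Its median was -0.21 over the 10 genes and 0.03 over all probesets. The 95% intervals of the 10 genes reached from -0.85 to 0.36. The interaction subtracts the difference of TNFα against Mock and shares its arrays. That difference was above 0 for all 10 genes and below 0 for 57.4% of all probesets. All probesets are therefore not a matched reference for these signs. Whether the 10 genes differed from other genes raised by TNFα was not tested.

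The same comparison can be read as signal. If the log2 differences of TNFα and FGF19 added up, NFKBIZ would have had a signal of 755 with FGF19 + TNFα, and its geometric mean was 552. For REL the sum predicted 1443 and the geometric mean was 1165, and for NFKB2 it predicted 963 and the geometric mean was 775. RELA, at 797 observed and 791 predicted, lay on the sum, and so nearly did BCL3 at 275 and 283. For NFKBIE 317 was observed and 374 predicted, and for RELB 240 and 294. None of these departures passed after adjustment.

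Set against Mock, cells given both agents had 8 genes raised and none lowered. Of all probesets, 33.9% were called, 19.3% higher and 14.7% lower, and the median log2 difference was 0.82 over the 10 genes and 0.08 over all probesets. NFKBIZ was 4.62-fold higher (limma adjusted p = 0.00102), REL 3.13-fold (0.00105), NFKBIA 2.71-fold (0.00144) and BCL3 2.1-fold (0.00216). NFKB2 was 1.79-fold higher (limma adjusted p = 0.00185), NFKB1 1.75-fold (0.002), RELA 1.67-fold (0.00194) and NFKBIE 1.22-fold (0.0497). RELB and NFKBIB did not pass, with 95% intervals of -0.48 to 0.3 and -0.58 to 0.02. The groups did not overlap for 9 genes, with 71.1% of all probesets, and RELB was the exception. The call of NFKBIE was lost whichever of the 8 arrays was left out, and the other 7 held under all 16 alternatives. NFKBIB passed as lower without either FGF19 array, which leaves the FGF19 group with 1 array. This comparison shares its arrays with those above.

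The genes around NFκB were described with 6 lists of 64 genes in all, of which 52 were measured by a probeset of 1 symbol. With TNFα against Mock, 8 of the 52 rose and none fell, with a median log2 difference of 0.07. Over all probesets 0.967% were higher and 0.0961% lower, with a median of -0.04. With 1 Mock or 1 TNFα array left out, 3 of the 52 were called. With FGF19 + TNFα against TNFα, 10 of the 52 were higher and 20 lower, with a median of -0.19. Over all probesets 19.4% were higher and 12.9% lower, with a median of 0.1. Between 11 and 31 of the 52 were called with 1 array left out, 12 without TNFα replicate 1, 11 without TNFα replicate 2, 15 without FGF19 + TNFα replicate 1 and 11 without FGF19 + TNFα replicate 2. With FGF19 against Mock, 12 of the 52 were higher and 21 lower, with a median of -0.11, while 18.2% of all probesets were higher and 14.1% lower, with a median of 0.08. This count of 33 was 15 without Mock replicate 1, 19 without Mock replicate 2 and 21 without FGF19 replicate 1, and 28 to 30 without each of the others. With FGF19 + TNFα against FGF19, 4 of the 52 were higher and none lower, while 0.282% of all probesets were called, and with 1 array left out 1 to 3 were called. The counts of the single lists are to be read against the same shares of all probesets.

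Of 13 negative feedback genes, 5 were raised by TNFα and none fell. TNFAIP3, a ubiquitin-editing enzyme that restrains NFκB, averaged 2390 with TNFα and 228 in Mock, a 10.5-fold rise (limma adjusted p = 0.000372). ZFP36, an mRNA-destabilising protein, rose 3.02-fold and TNIP1, a partner of TNFAIP3, 1.84-fold. CYLD, a deubiquitinase, and ZC3H12A, an RNase, rose 1.83-fold and 2.48-fold. With 1 Mock or 1 TNFα array left out, 2 of the 13 were called. With FGF19 + TNFα against TNFα, 2 of the 13 were higher, OTULIN and RNF11, and 3 lower, TNIP2, OTUD7B and SOCS3. These 5 calls were 1 or 2 without a TNFα or an FGF19 + TNFα array, and 3 without a Mock array. TNIP2, another partner of TNFAIP3, was 2.21-fold lower, at 202 with FGF19 + TNFα and 445 with TNFα (limma adjusted p = 0.00348). TNFAIP3 averaged 2120 with FGF19 + TNFα and 2390 with TNFα and did not pass.

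Of 7 further IκB and Rel-associated genes, NFKBID, a nuclear IκB, rose 3.88-fold with TNFα against Mock (mean signal 259 with TNFα and 66.9 in Mock, limma adjusted p = 0.000866). In FGF19 + TNFα cells it was 1.5-fold lower than in TNFα cells, as were NKIRAS2 (1.55-fold), which encodes a small GTPase that binds IκB proteins, and NFKBIL1 (1.31-fold). These 3 calls were 1 without TNFα replicate 2 or FGF19 + TNFα replicate 2, and 2 without the other array of either group. Of 8 measured genes of receptor-proximal signaling, BIRC2, a ubiquitin ligase, rose 1.69-fold with TNFα, a call that was lost whichever Mock, TNFα or FGF19 + TNFα array was left out. With FGF19 + TNFα against TNFα, 6 of the 8 were lower, TNFRSF1B, TRADD, BIRC2, RNF31, RBCK1 and SHARPIN, and TRAF5 was higher, while 12.9% of all probesets were lower and 19.4% higher. RNF31, RBCK1 and SHARPIN encode the linear ubiquitin chain assembly complex. This list had no call without TNFα replicate 1 or without FGF19 + TNFα replicate 2, 1 without TNFα replicate 2, 2 without FGF19 + TNFα replicate 1 and 4 without a Mock array.

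Of 10 measured genes of the IKK and TAK1 kinases, IKBKE, an IKK-related kinase, rose 2.12-fold with TNFα against Mock, a call that was lost whichever Mock or TNFα array was left out. In FGF19 + TNFα cells it was 1.73-fold lower than in TNFα cells (mean signal 290 with FGF19 + TNFα and 501 with TNFα, limma adjusted p = 0.00604), and IKBKG, the regulatory subunit of the IKK complex, was lower too. TAB3 (1.8-fold) and TAB2 (1.61-fold), adaptors of TAK1, and CHUK, a catalytic IKK subunit, were higher. IKBKB, which encodes IKKβ, had a log2 difference of -0.27 and did not pass (limma adjusted p = 0.118). The 5 calls of this list were 3 without either TNFα array or FGF19 + TNFα replicate 2.

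Among 5 measured genes of IκB ubiquitination, FBXW11 and BTRC, which recognise phosphorylated IκB, were higher with FGF19 + TNFα than with TNFα, and RBX1 (1.87-fold) and SKP1 (1.32-fold), core parts of the ligase, were lower. These 4 calls were 1 without either TNFα array and 2 without either FGF19 + TNFα array. Of 9 measured Rel coactivators and chromatin partners, the acetyltransferase genes EP300 (2.1-fold) and CREBBP (1.98-fold) were higher and CDK9, an elongation kinase, was 2.01-fold lower, as were HDAC1, HDAC3 and RPS3. These 6 calls were 4 without any 1 TNFα or FGF19 + TNFα array. In the same comparison 19.4% of all probesets were higher and 12.9% lower. None of the genes of these last 2 lists passed with TNFα against Mock.

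**Figure D5:**
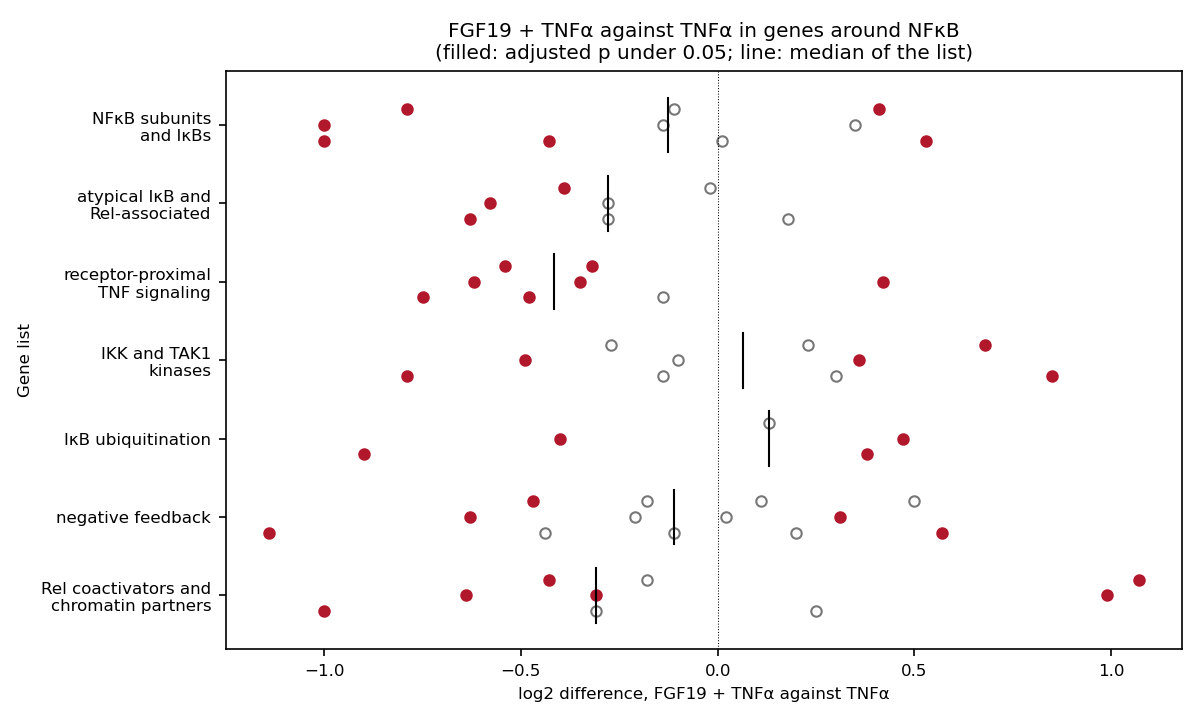
log2 difference, FGF19 + TNFα against TNFα, for each measured gene (points, filled where the adjusted p was under 0.05) of the 10 NFκB and IκB genes and the 6 lists around them, with the median of each list as a line. Each list holds genes on each side of 0, the receptor-proximal list has its median at -0.41, and the lowest point is TNIP2.

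The genes most like each of the 10 across the 8 arrays were found by the root mean square distance between log2 signals centred on their means, over 19450 probesets with 1 symbol. NFKB1 was closest to TNIP1 (distance 0.0938), NFKB2 to TNFAIP8 (0.0881) and REL to CXCL5 (0.078). RELA was closest to BAZ1A (0.031) and RELB to ELF3 (0.13). NFKBIA was closest to NOCT (0.0774), with ZFP36 next (0.0984), NFKBIB to ZC3H7B (0.0482) and NFKBIE to MAFF (0.125), with IKBKE next (0.132). NFKBIZ was closest to KLF7 (0.123), with IL6 next (0.144), and BCL3 to RAB3IP (0.0807). For the others, the next closest were GADD45A for NFKB1, EDN1 for NFKB2, HIVEP1 for REL and B4GALT1 for RELA. TAP1 came next for RELB, MT1M for NFKBIB and RBM47 for BCL3. Within the family, NFKB1 and NFKB2 were the closest pair (0.194), followed by RELA and BCL3 (0.199) and by RELB and NFKBIB (0.208). These distances can be set beside the genes' own variation, a root mean square of 0.264 for RELA and of 1 for NFKBIZ about their means.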

How the data were processed

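Linear intensity values of 33297 probesets on 8 arrays, as deposited, came per the labels from PLIER in Affymetrix Expression Console, with neither version nor normalization given in the sources used here. From the deposited intensity, log2 values were taken after 240 zeros were replaced by 0.01, the lowest signal above 0 on each array, with no further normalization. limma 3.58.1 in R 4.3.3 was fitted to all 8 arrays with 4 groups. All probesets were tested, and p-values were two-sided and adjusted by Benjamini-Hochberg, at 0.05 for the 6 comparisons and 0.015 for the F test. The platform's table gave 1 symbol for 19460 probesets, updated through Entrez identifiers to RefSeq (GRCh38.p14). Members, lists and tests were chosen with earlier results of these data known. Every member was named, and a pathway gene was taken at its brightest probeset. Up to 3 genes per list with the smallest p among those called were to be named in each of TNFα against Mock and FGF19 + TNFα against TNFα, and other genes were named after their values were seen. The fit was tested on simulated data. Alternatives were normalization by quantiles or by cyclic loess, an offset of 16, the dimmest 20 percent left out, no moderation, a trended and robust prior, only the groups compared, the replicate block, and each array left out. Figures were drawn with matplotlib 3.10.9.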

Additional observations from a re-analysis of the deposited data

How the results depend on the processing

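With 2 arrays per group, many calls were lost when 1 array was left out, in some cases an array outside the comparison. The estimates could stay close all the same. For NFKB1 with FGF19 + TNFα against FGF19, the log2 difference lay between 0.73 and 0.78 over the 16 alternatives. Why calls were lost was not tested. Over the arrays left out in turn, the number of the 10 genes called ranged from 4 to 7 for TNFα against Mock, where the count over all arrays was 6, from 2 to 6 for FGF19 against Mock (7 over all arrays, 2 without Mock replicate 1 or 2), and from 3 to 6 for FGF19 + TNFα against TNFα (6 over all arrays, 3 without TNFα replicate 1 or FGF19 + TNFα replicate 2). It ranged from 0 to 2 for FGF19 + TNFα against FGF19 (6 over all arrays), from 7 to 8 for FGF19 + TNFα against Mock (8), and from 6 to 10 for the F test (10, and 6 without Mock replicate 1 or 2). Leaving out an array leaves its group with 1 array, assumed to vary like the others. Without moderation of the variances, 4 genes were called for FGF19 against Mock and 3 for FGF19 + TNFα against FGF19. These 3 were NFKB2, NFKBIE and RELA, of which RELA did not pass with moderation. With only the groups compared, the counts of the same comparisons were 2 and 0. The counts under the alternatives were not set beside the share of all probesets called in the same setting. Whether these genes lost more calls than other probesets was not tested. The interaction had no call in its 15 alternatives. Of 950 values of the 10 genes under an alternative, 821 kept direction and call, 101 lost the call, 18 gained one and 10 turned in sign, none of them called over all arrays. NFKBIA with FGF19 against Mock was -0.03 without Mock replicate 2 and ranged from -0.07 without FGF19 replicate 2 to 0.13 over the arrays left out. NFKBIZ with FGF19 + TNFα against TNFα ranged from -0.11 without FGF19 + TNFα replicate 2 to 0.12, and RELB with FGF19 + TNFα against Mock from -0.2 to 0.02 without Mock replicate 2. The interaction of RELA was -0.01 after quantile normalization, and 0 after cyclic loess and without TNFα replicate 1. That of BCL3 ranged from -0.15 to 0.07 and was above 0 without Mock replicate 2 (0.07), FGF19 replicate 2 (0.04) and TNFα replicate 2 (0.05). The cause of these changes of sign was not tested. Arrays of different groups that share a replicate number deviated together at r = -0.02 to 0.195 over 6 pairs of groups. The highest value was that of FGF19 with FGF19 + TNFα, and the next was 0.063, for TNFα with FGF19 + TNFα. The replicate numbers were not taken to pair the arrays. With the replicate block, 6 genes were called for TNFα against Mock, 6 for FGF19 against Mock, 6 for FGF19 + TNFα against TNFα, 4 for FGF19 + TNFα against FGF19, 7 for FGF19 + TNFα against Mock, 0 for the interaction and 10 by the F test.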
